A study of Mus musculus with 83 samples.

Results

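Vitrified and fresh ovarian follicles of the mouse were compared 1 h after an ovulatory stimulus, in 11 of the 83 libraries of the study. The 11 were taken by their labels alone: 5 vitrified and 6 fresh follicle libraries collected at 1 h whose titles carry the same plate name. A further 9 vitrified libraries of 1 h came from another plate that held no fresh follicle, and were left out of the comparison. All follicles came from wild-type CD-1 mice, an outbred stock. The vitrified ones had been vitrified, that is cooled into a glass without ice crystals, before culture, and the fresh ones had not. Both kinds were grown for 8 days in 0.5% alginate, a seaweed gel that keeps the follicle round, in medium with FSH. Those that had reached 300 to 350 µm were taken out of the gel and matured with human chorionic gonadotropin (hCG, 1.5 IU/ml), EGF (10 ng/ml) and FSH (10 mIU/ml). The labels give no age, no animal and no culture run, so the p-values below measure the spread between these libraries, which may be partly technical. Each group also filled a plate row of its own, and 4 of the S numbers in the titles were used in both rows. A difference between rows or sequencing runs and a difference made by vitrification cannot be told apart here.

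hCG acts on the receptor for luteinizing hormone on mural granulosa cells, the cells that line the follicle wall. Within the first hour these cells switch on immediate early genes and the EGF-like ligands Areg, Ereg and Btc, which carry the signal to the cumulus cells around the oocyte. Cumulus cells then build a hyaluronan matrix, while granulosa cells turn from estradiol to progesterone synthesis, and theca and stromal cells remain outside the basement membrane. Vitrification exposes cells to cryoprotectants and to osmotic and thermal stress, and is used to store ovarian tissue and follicles for fertility preservation.

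Of 7275 genes tested, 4 differed at an adjusted p under 0.05, which is 0.055% of them (edgeR quasi-likelihood test, Benjamini-Hochberg adjustment over all genes tested, used throughout). Rps2, a protein of the small ribosomal subunit, and H2-K1, a classical class I histocompatibility gene, rose in vitrified follicles (0.0275% of genes called higher). H2-K2, a class I pseudogene next to H2-K1, and Apoe, the lipid carrier apolipoprotein E, fell (0.0275% called lower). At an unadjusted p under 0.05 stood 661 genes (9.09%), of which 371 (5.1%) had higher and 290 (3.99%) had lower values in vitrified follicles. These shares are the background for the gene list counts at that level below that come from all 11 libraries. The median log2 fold change over all genes tested was 0.01, a value that the scaling (TMM) sets near 0, and -0.17 with scaling by total counts alone.

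Sequences of the genes that carry the calls are shown first, since 3 of the 4 calls concern genes with close copies elsewhere in the genome, and a read that matches several copies can be counted for any of them. H2-K1 lies at chr17:33996017-34000347 and H2-K2 at chr17:33974659-33978827, both on the minus strand of GRCm38. Over the 1002 aligned bases of the H2-K1 coding sequence the pseudogene is 88.6% identical. The 120 coding bases with the most differences, bases 465 to 584, are shown with the bases in which H2-K2 differs from H2-K1 in capitals, 29 in all.
H2-K1: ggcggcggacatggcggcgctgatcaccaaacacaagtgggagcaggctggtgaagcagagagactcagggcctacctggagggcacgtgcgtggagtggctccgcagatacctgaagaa
H2-K2: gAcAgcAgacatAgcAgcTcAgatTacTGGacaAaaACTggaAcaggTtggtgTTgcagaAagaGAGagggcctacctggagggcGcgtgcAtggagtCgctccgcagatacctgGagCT
Rps2 lies at chr17:24718116-24721929 on the plus strand, and its processed pseudogene Rps2-ps13 at chrX:52898588-52899469, also on the plus strand. These copies are 99.2% identical over all 879 coding bases, and even in the stretch with the most differences, bases 1 to 120, only 2 bases differ.
Rps2: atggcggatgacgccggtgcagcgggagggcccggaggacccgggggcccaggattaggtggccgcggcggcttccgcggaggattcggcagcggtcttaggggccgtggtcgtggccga
Rps2-ps13: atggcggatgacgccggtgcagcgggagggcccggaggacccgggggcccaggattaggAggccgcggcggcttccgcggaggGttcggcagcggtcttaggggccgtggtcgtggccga
The transcripts and positions are those of GENCODE vM21. Of the 1943 different 50-base stretches in Rps2 transcripts, 43.0% also occur in a transcript of another gene. That share was 9.63% for H2-K1 and 9.38% for H2-K2. Apoe, at chr7:19696109-19699188 on the minus strand, shares none.

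Rps2 levels in the 6 fresh libraries ran from 50.6 over a median of 76.1 to 92.8 CPM, scaled over all libraries of the study. The 5 vitrified libraries, in the order of their labels, held 128, 357, 479, 333 and 296 CPM. All vitrified libraries lay above all fresh ones, and the first vitrified library was much nearer to the fresh range than the others. The log2 fold change was 2.05 ± 0.28 (SE), with an adjusted p of 0.0156. Over all genes tested, 53 (0.729%) were higher in every vitrified library than in any fresh one, and 20 (0.275%) were lower.

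**Figure D1:**
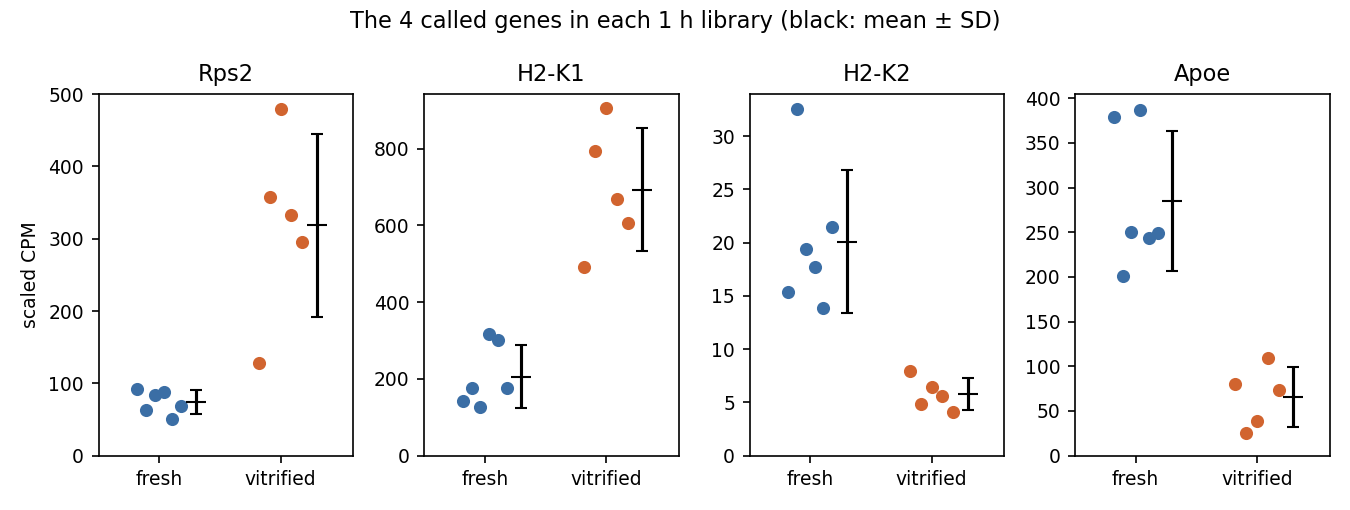
Scaled CPM (linear axes from 0) of the 4 called genes in the 6 fresh and 5 vitrified libraries of 1 h, 1 point per library, with the mean and SD in black. The groups do not overlap for any of the 4, and the vitrified library with the lowest Rps2 (128 CPM) sits nearest to the fresh ones.

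The call of Rps2 depended on how its copies were counted. Rps2-ps13 held most counts of the family, 739.8 ± 127 CPM (SD, n = 6) in fresh and 591 ± 151 (n = 5) in vitrified follicles, which is -0.38 ± 0.18 on the log2 scale (edgeR adjusted p = 0.563). Summed over Rps2 and its listed pseudogenes, 11 genes in all, fresh libraries held 929 ± 159 CPM and vitrified libraries 1101 ± 224. The difference of that sum did not pass the test (log2 fold change 0.20 ± 0.17, edgeR adjusted p = 0.735; exact permutation test of the sums, adjusted p = 0.203). 

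Rps3a3, a processed pseudogene of the ribosomal protein gene Rps3a1 at chr13:108670603-108671397 on the plus strand, also has near-identical copies that were counted apart. The 3 copies of this family differ in few bases, shown here for coding bases 526 to 645, the stretch with the most differences, with the bases that differ from Rps3a1 in capitals. Rps3a1 lies at chr3:86137940-86142702 and Rps3a2, another processed pseudogene, at chr14:88123017-88123808, both on the minus strand.
Rps3a1: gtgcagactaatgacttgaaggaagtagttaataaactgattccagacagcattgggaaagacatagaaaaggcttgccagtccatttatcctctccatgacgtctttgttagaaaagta
Rps3a2: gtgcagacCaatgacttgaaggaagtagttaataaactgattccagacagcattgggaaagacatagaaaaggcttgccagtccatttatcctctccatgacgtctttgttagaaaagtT
Rps3a3: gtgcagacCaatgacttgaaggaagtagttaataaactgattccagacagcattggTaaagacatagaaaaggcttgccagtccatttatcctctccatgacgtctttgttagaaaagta
Fresh libraries held 55.1 to 195 CPM of Rps3a3, with a median of 90.1. The vitrified libraries held 850.2, 827, 81.9, 788 and 851 CPM. Thus 4 vitrified libraries stood far above the fresh range and vitrified library 3 lay inside it, and the log2 fold change of 2.69 ± 0.50 missed the threshold (edgeR adjusted p = 0.123). Vitrified library 3 had the highest Rps2 of all 11, and vitrified library 1, with the lowest vitrified Rps2, had high Rps3a3, so the libraries were not low for both. Rps3a1 itself had 1145 ± 166 CPM in fresh (SD, n = 6) and 885 ± 456 in vitrified follicles (n = 5). The 3 genes together had 1871 ± 322 CPM and 2640.1 ± 223 CPM (log2 fold change of the summed counts 0.45 ± 0.14, edgeR adjusted p = 0.448). As a single value the sum differed between the groups (exact permutation test, two-sided, adjusted p = 0.0173 over 4 such sums). Its ranges of 1486 to 2366 and 2305 to 2903 CPM overlap. This sum too was chosen after the values of its members were seen, so the permutation value is no separate support. Rps3a2 had 623 ± 141 CPM in fresh and 1076 ± 100.4 in vitrified libraries, without overlap (0.74 ± 0.16, edgeR adjusted p = 0.15).

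**Figure D2:**
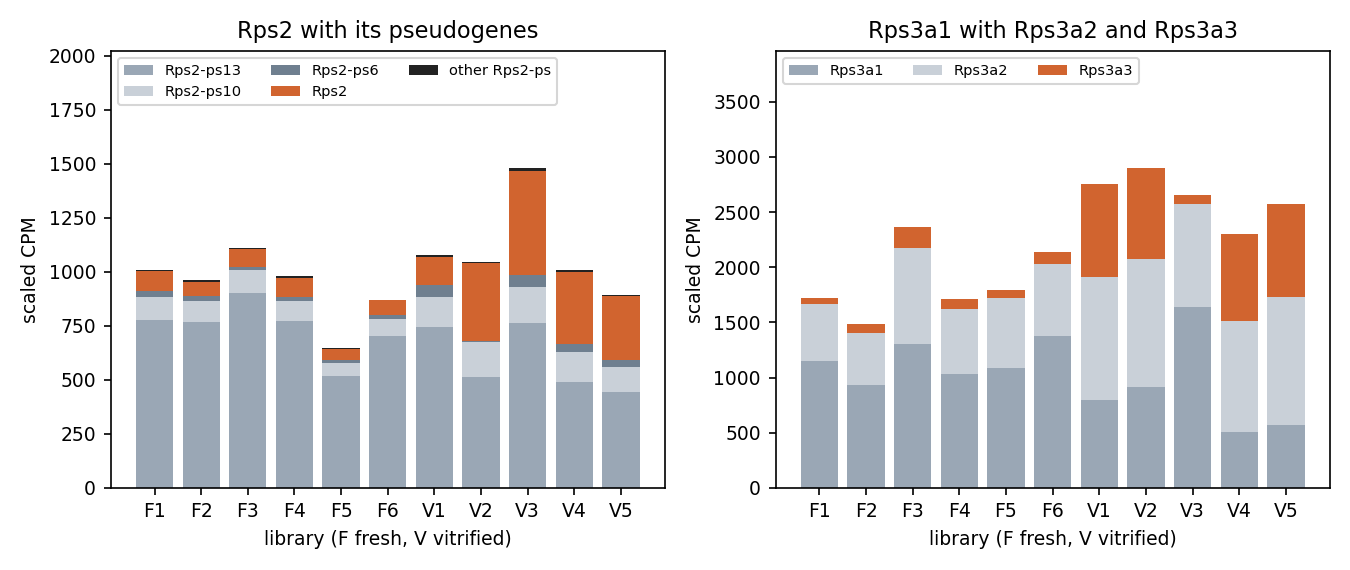
Scaled CPM stacked by gene for the Rps2 family (left) and the Rps3a family (right) in fresh (F) and vitrified (V) libraries of 1 h. The orange parts, Rps2 and Rps3a3, are larger in most vitrified libraries. Rps3a3 is small in V3 (81.9 CPM), and Rps2 is smallest among the vitrified libraries in V1 (128 CPM).

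H2-K1, whose product shows peptides to cytotoxic T cells, ran from 126 over a median of 176 to 316 CPM in fresh libraries. Vitrified libraries held 491, 794, 905, 669 and 607 CPM, all above the fresh range. The log2 fold change was 1.70 ± 0.26 with an adjusted p of 0.0238 (edgeR). Its neighbour H2-K2 went the other way at a far lower level, from 13.9 to 32.6 CPM with a median of 18.6 in fresh libraries. In vitrified libraries it held 7.97, 4.88, 6.49, 5.64 and 4.12 CPM, all below the fresh range (log2 fold change -1.83 ± 0.29, adjusted p 0.0238). The sum of both followed H2-K1, at 226 ± 80.0 CPM in fresh (SD, n = 6) and 699 ± 161 in vitrified follicles (n = 5). With the counts of such copies summed before the fit, H2-K1 had a log2 fold change of 1.58 ± 0.24 and an edgeR adjusted p of 0.0596. The exact permutation test of the sums of both genes gave an adjusted p of 0.0173 over 4 such sums. H2-K1 made up most of this sum, which was chosen after its call was seen, so the permutation value is no separate support.

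Of 13 genes tested for class I molecules and peptide transport, a list without H2-K2, 1 was called, higher. At an unadjusted p under 0.05 stood 2 in each direction, beside 5.1% of all genes higher and 3.99% lower. The median log2 fold change of the list was -0.05, beside 0.01 over all genes tested. Tap2, a subunit of the peptide transporter, had 1.20 ± 0.41 (edgeR adjusted p = 0.446), and the nonclassical genes H2-T22 and H2-Q4 had -0.94 ± 0.36 and -0.48 ± 0.20. H2-D1, the other classical class I gene here, split the fresh libraries: 4 of 6 held 79.1 to 102 CPM and the others 680.4 and 872 CPM. The vitrified libraries held 404, 806, 1039.7, 856 and 771 CPM, and the difference did not pass (1.22 ± 0.69, edgeR adjusted p = 0.621). Class I genes are highly polymorphic in mice and CD-1 is outbred, whereas the reference is one inbred genome. The labels name no animal, and whether genotype differed between the groups was not tested.

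Apoe fell from 200.5 to 387 CPM with a median of 249 in fresh libraries to 80.5, 24.8, 39.2, 109 and 73.9 CPM in vitrified libraries. The groups did not overlap, and the log2 fold change was -2.16 ± 0.35 (edgeR adjusted p = 0.0457). Apoe had the weakest of the 4 calls: without 1 library at a time it stayed under the threshold in 2 of 11 fits, beside 9 of 11 for Rps2 and 6 of 11 for each of H2-K1 and H2-K2. Without fresh library 6 or without vitrified library 5 no gene was called (650 and 674 genes at an unadjusted p under 0.05), while DESeq2 called 37 and kept all 4.

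Apoe is made by macrophages and theca cells among others, so markers of cells outside the granulosa layer are given beside it. In these bulk libraries fewer cells of a type and less RNA per cell cannot be told apart. Immune markers were 10 genes, of which only Lyz2 passed the filter on low counts. They summed to 0.00193 to 0.00500% of counts in fresh libraries and to 0 to 0.000602% in vitrified libraries. This share fell (exact permutation test, two-sided, adjusted p = 0.0303 over 7 marker lists, the unadjusted p of 0.00433 being the smallest that 462 arrangements can give). Lyz2 made up most of this sum in fresh libraries, so the list and the gene given next rest largely on the same counts. The macrophage marker Adgre1, which did not pass the filter, was at 0 in vitrified libraries. Lyz2, the lysozyme of macrophages, had 18.6 to 51.1 CPM in fresh libraries with a median of 21.2, and 0, 1.22, 0, 6.85 and 0.867 CPM in vitrified ones. The groups did not overlap, yet the gene missed the threshold (log2 fold change -4.22 ± 0.82, edgeR adjusted p = 0.14). It passed without vitrified library 4 (-5.85 ± 0.65). The part of immune cells in the Apoe result was not tested.

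Theca and stroma markers summed to 0.0655 to 0.28% of counts in fresh and to 0.0533 to 0.169% in vitrified libraries, ranges that overlap (exact permutation test, adjusted p = 0.23). Of 14 tested, none was called, and 12 lay below 0 and 2 above, the highest at 1.15. At an unadjusted p under 0.05, 7 were lower and none higher, beside 3.99% and 5.1% of all genes. The median log2 fold change was -1.02 beside 0.01 for all genes. Without vitrified library 4 the 7 became 4 and the median -0.91. In that fit 291 of 7469 genes stood higher and 273 lower at an unadjusted p under 0.05, with a median of -0.01. Those values are the background for the list counts given below without that library. Dcn, which codes for the matrix proteoglycan decorin, had 67.0 to 229 CPM in fresh libraries and 80.8, 24.8, 85.4, 24.6 and 49.6 CPM in vitrified ones (-1.53 ± 0.39, edgeR adjusted p = 0.335). Ogn, the proteoglycan osteoglycin, lay below the fresh range in every vitrified library (-1.56 ± 0.42, adjusted p 0.346), and Acta2, smooth muscle actin, had -1.89 ± 0.67.

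Endothelial markers summed to 0.000853 to 0.0124% in fresh and 0.000259 to 0.00303% in vitrified libraries (exact permutation test, adjusted p = 0.121), with Cdh5, the cadherin of endothelial junctions, at -2.20 ± 0.66 (edgeR adjusted p = 0.44). Of 25 genes for collagens, laminins and the basement membrane, 19 had values below 0, 4 at an unadjusted p under 0.05, with a median of -0.73. Of all genes 3.99% were lower at that level. Without vitrified library 4 the list held 2 such genes and a median of -0.66. The lowest p was that of Lamb1, a laminin chain, at 590.2 to 1487 CPM in fresh and 569, 331, 757, 418 and 467 CPM in vitrified libraries (-0.98 ± 0.25, adjusted p 0.288). Actin and SRF targets held 6 genes lower and 2 higher at an unadjusted p under 0.05 among 30, and 3 lower and 1 higher without vitrified library 4. Granulosa markers made up 7.54 to 9.11% of counts in fresh and 7.76 to 9.20% in vitrified libraries (exact permutation test, adjusted p = 0.278). Oocyte markers made up at most 0.0129% in any of the 11 libraries, and 4 of the 21 listed passed the filter.

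**Figure D3:**
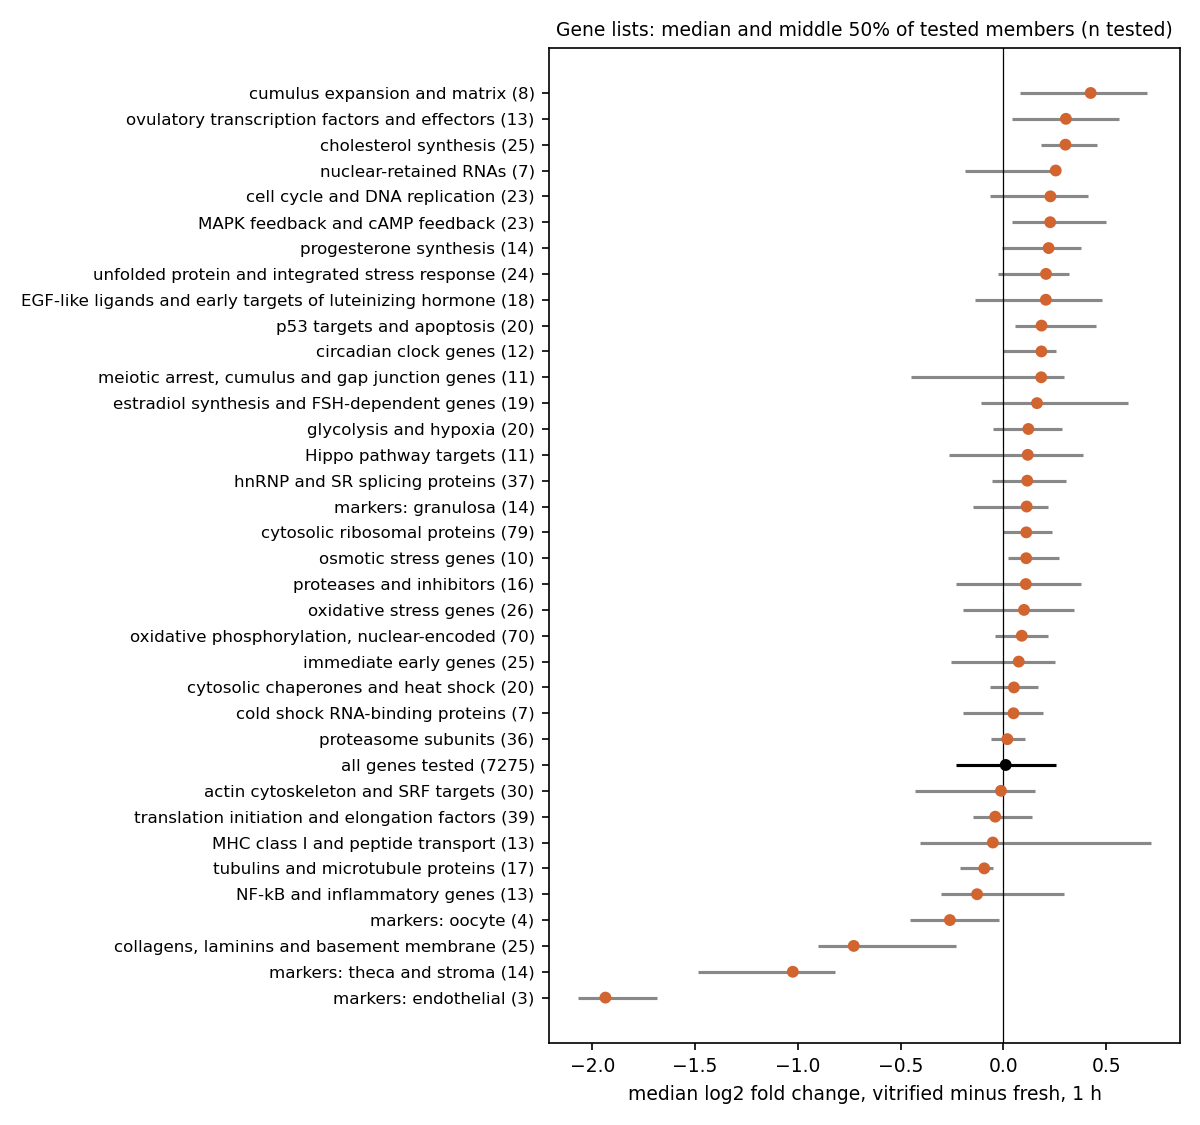
Median log2 fold change (points) and middle 50% (lines) of the tested members of each gene list with at least 3, with the number tested in brackets and all 7275 genes in black. The endothelial, theca and stroma, and collagen and laminin lists lie lowest, at -1.94, -1.02 and -0.73, and cumulus expansion lies highest at 0.42 (0.34 without vitrified library 4, when cholesterol synthesis is at 0.36).

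Genes of the ovulatory response were not called between the groups. Areg, the EGF-like ligand amphiregulin, had 398 to 957 CPM in fresh libraries with a median of 762, and 1314, 1157, 769, 1327 and 1545 CPM in vitrified ones. Of the vitrified libraries, 4 lay above the fresh range and vitrified library 3 inside it. The log2 fold change was 0.70 ± 0.21 (95% interval 0.24 to 1.16, edgeR adjusted p = 0.43). Ereg, epiregulin, had 0.82 ± 0.33 and Btc, betacellulin, 0.43 ± 0.31. Of 18 genes in the list of EGF-like ligands and early targets, 2 had higher and 1 had lower values at an unadjusted p under 0.05. The shares of all genes were 5.1% and 3.99%, and the list median was 0.21.

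The receptor gene Lhcgr varied widely within each group, from 803 to 4155 CPM in fresh and from 829 to 5885 CPM in vitrified libraries (0.46 ± 0.50, 95% interval -0.64 to 1.56). Among 25 immediate early genes, which code for the first transcription factors made after a stimulus, 13 lay above and 12 below 0, with a median of 0.07. Nr4a1, an orphan nuclear receptor, had 0.38 ± 0.13 (edgeR adjusted p = 0.446), Egr1 0.26 ± 0.16 and Fos -0.18 ± 0.22. Myc had the lowest p of the list, at -0.83 ± 0.25 (adjusted p 0.423).

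Genes of the cumulus matrix had a list median of 0.42 over 8 tested, and 0.34 over 9 without vitrified library 4. With all libraries 3 were higher at an unadjusted p under 0.05, beside 5.1% of all genes. Tnfaip6, which links hyaluronan chains through inter-alpha-inhibitor, had 44.3 to 131 CPM in fresh libraries with a median of 89.7. The vitrified libraries held 176, 243, 160.0, 262 and 537 CPM, all above the fresh range, yet the gene missed the threshold (1.56 ± 0.33, edgeR adjusted p = 0.15). Vcan, versican, had 0.70 ± 0.17 and Bmp2 0.70 ± 0.25, while Ptgs2, the inducible prostaglandin synthase, had 0.48 ± 0.32 and Has2, the hyaluronan synthase, 0.15 ± 0.40. The 95% intervals of Ptgs2 and Has2 include 0 and reach up to 1.17 and 1.00 on the log2 scale.

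Of 13 ovulatory transcription factors and effectors, 4 stood at an unadjusted p under 0.05, all higher, with a median of 0.30, beside 5.1% of all genes. Without vitrified library 4 there were 2, with a median of 0.23. Sfrp4, a secreted inhibitor of Wnt signalling that is induced in granulosa cells at ovulation, had 28.02 to 155 CPM in fresh libraries, median 39.8. Vitrified libraries held 1640.3, 892, 291, 358 and 488 CPM, without overlap, and the log2 fold change of 3.56 ± 0.56 narrowly missed the threshold (edgeR adjusted p = 0.062). Pgr, the progesterone receptor, had 0.56 ± 0.24 and the protease Adamts1 0.55 ± 0.18, the latter without overlap between the groups. Cebpa had 1.91 ± 0.67, and 0.54 ± 0.33 without vitrified library 4.

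**Figure D4:**
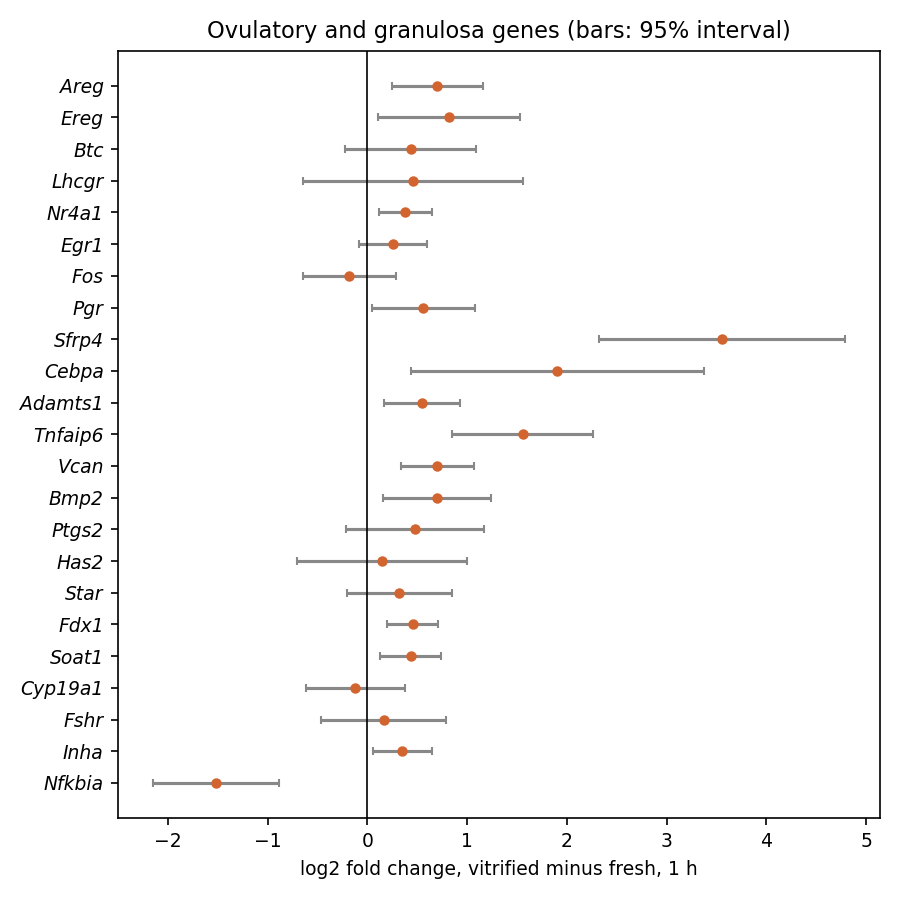
Log2 fold change, vitrified minus fresh at 1 h, with its 95% interval for genes of the ovulatory response and granulosa function, ordered by role. None of these genes was called, with Sfrp4 (3.56) the highest and Nfkbia (-1.52) the lowest.

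No gene of steroid or cholesterol synthesis was called. Of 25 cholesterol synthesis genes, 23 lay above 0, with a median of 0.30, and 4 of them stood at an unadjusted p under 0.05, beside 371 of 7275 for all genes. Fdps, which makes farnesyl diphosphate, had 0.51 ± 0.20 (edgeR adjusted p = 0.473). Fdx1, the electron donor of the side-chain cleavage enzyme, had 6162 to 8235 CPM in fresh and 10326, 11660.1, 10523, 9879 and 9344 CPM in vitrified libraries. The groups did not overlap, with a log2 fold change of 0.45 ± 0.12 (adjusted p 0.34). Star, which brings cholesterol into mitochondria, had 0.32 ± 0.25 (95% interval -0.21 to 0.85), and Soat1, which stores it as esters, 0.43 ± 0.15. Cyp19a1, the aromatase that makes estradiol, had -0.12 ± 0.23, and the FSH receptor gene Fshr 0.16 ± 0.30. Inha, the inhibin alpha chain, had 0.35 ± 0.14.

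Stress genes showed no call. Cirbp and Rbm3, RNA-binding proteins induced by mild cold, had -0.39 ± 0.23 and -0.12 ± 0.17, and the heat shock gene Hspa1a 0.01 ± 0.33, whose sign changed with the scaling and with the library left out. Of 20 chaperone genes, 3 had higher and 1 had lower values at an unadjusted p under 0.05, beside 5.1% and 3.99% of all genes, and 1 and 0 without vitrified library 4. Dnaja4, a partner of Hsp70, had 1.57 ± 0.53, or 0.75 ± 0.38 without that library. Of 26 oxidative stress genes 3 were higher at an unadjusted p under 0.05, or 2 without vitrified library 4. Of 24 genes of the unfolded protein and integrated stress response, 3 were higher and 1 lower at that level, and 5 and 0 without vitrified library 4. The median of this list was 0.21 with all libraries. Among 20 p53 targets and apoptosis genes, 2 stood in each direction at an unadjusted p under 0.05, with Trp53inp1 at 0.63 ± 0.21. Nfkbia, the inhibitor that holds NF-kB in the cytoplasm, had 24.5 to 77.6 CPM in fresh libraries with a median of 46.5, and 21.4, 9.77, 21.1, 15.7 and 17.8 CPM in vitrified ones. All vitrified values lay below the fresh range, and the log2 fold change was -1.52 ± 0.30 (edgeR, adjusted p = 0.0979).

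Pdp2, a phosphatase that activates pyruvate dehydrogenase, had 5.72 to 14.03 CPM in fresh and 29.1, 30.1, 34.1, 28.6 and 22.3 CPM in vitrified libraries, again without overlap (1.38 ± 0.25, edgeR adjusted p = 0.062). Nr3c2, the mineralocorticoid receptor, had 2.57 ± 0.47 (adjusted p 0.062) and Net1, an exchange factor for RhoA, 1.31 ± 0.25 (0.0978). Others with a low p were Arhgap28 at 1.08 ± 0.23 and Slmap at 1.81 ± 0.39 among the higher ones. The lower ones were Cavin3, a caveolar coat protein, at -1.53 ± 0.33, Ttyh2 at -0.99 ± 0.22, Dxo at -1.32 ± 0.31, AK157302 at -0.80 ± 0.19, the interferon-induced Ifitm3 at -2.14 ± 0.52 and the actin-severing gelsolin gene Gsn at -1.33 ± 0.33. None of these was called.

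The other gene lists held no called gene apart from Rps2. Of 79 cytosolic ribosomal proteins 5 stood at an unadjusted p under 0.05, all higher, with a median of 0.11, beside 5.1% of all genes, and 8 did so without vitrified library 4. Of 70 nuclear-encoded genes of oxidative phosphorylation 4 were higher and 1 lower in this sense, led by Cox7c, a subunit of cytochrome oxidase, at 0.52 ± 0.19. Of 20 genes of glycolysis and hypoxia 3 were higher, led by the enolase gene Eno1 at 0.42 ± 0.16. Among 19 genes of estradiol synthesis and FSH response 6 were higher, or 4 without vitrified library 4, and Prkar2b, a regulatory subunit of protein kinase A, led at 2.14 ± 0.66, or 0.67 without vitrified library 4. Of 11 genes of meiotic arrest, cumulus and gap junctions, 1 was higher and 3 were lower, and 2 and 0 without vitrified library 4. The higher one with all libraries was Kitl, the ligand by which granulosa cells reach the oocyte's Kit receptor, at 1.38 ± 0.51. Sod1, the cytosolic superoxide dismutase, had 0.67 ± 0.24, Dnajb9, a chaperone of the endoplasmic reticulum, 0.51 ± 0.17, and Akr1b3, the aldose reductase that makes sorbitol, 0.42 ± 0.19. Psmb8, an immunoproteasome subunit, had 0.92 ± 0.31 and the cyclin gene Ccnd2 0.62 ± 0.25. Ezr, which ties actin to the membrane, lay above the fresh range in every vitrified library (0.67 ± 0.18, edgeR adjusted p = 0.335). Of 17 tubulins and microtubule proteins none stood at an unadjusted p under 0.05, and 1 did, higher, without vitrified library 4. Their lowest p was that of Tubb6, at -0.56 ± 0.27. Fam222b had 0.95 ± 0.32.

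Of 39 translation factors 1 was higher and 1 lower at an unadjusted p under 0.05, with Eif6, which keeps the ribosomal subunits apart, at -0.44 ± 0.16. Among 23 genes of MAPK and cAMP feedback 1 was higher and 2 lower, with the phosphatase gene Dusp5 at 2.11 ± 0.69, or 0.73 ± 0.34 without vitrified library 4. Of 7 cold shock genes none stood at that level, with Ybx1 at 1.24 ± 0.61, or 0.02 ± 0.25 without that library. Arntl, a core clock factor, had 0.72 ± 0.30 among 12 clock genes, and Tead1, the DNA-binding partner of YAP, 0.64 ± 0.27 among 11 Hippo targets. Xist, the RNA of the inactive X chromosome, had -0.65 ± 0.25 among 7 nuclear-retained RNAs. Zar1, an oocyte gene, had -0.44 ± 0.36.

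Part of the higher values came from 1 library. In vitrified library 4, 91 of 7275 genes lay more than 4 times above the next highest of the 11 libraries. Vitrified library 2 had 1 such gene and the other 9 libraries none. Among the 91 was Hnrnpu, a nuclear scaffold RNA-binding protein, at 1245 CPM beside 75.8, 54.9, 52.98 and 38.1 CPM in the other vitrified libraries and 27.5 to 43.1 CPM in fresh ones. Its log2 fold change of 3.09 ± 0.95 became 0.58 ± 0.21 without that library. Fst, which codes for follistatin, an antagonist of activins, had 7256 CPM there and 147 to 485 CPM in the other vitrified libraries, beside 159.6 to 379 in fresh ones. Its log2 fold change of 2.55 ± 0.95 became 0.14 ± 0.30. Of 37 genes for hnRNP and SR splicing proteins, 6 stood higher at an unadjusted p under 0.05 with all libraries and 4 of 36 without vitrified library 4. With all libraries 5.1% of all genes stood higher at that level, and without vitrified library 4 it was 291 of 7469. Hnrnpab had 2.33 ± 0.89 with it and 0.14 ± 0.32 without, and Srsf2 2.28 ± 0.97 and 0.16 ± 0.51. The 50 most abundant genes of vitrified library 4 made up 50.0% of its counts, a share that was 42.6 to 44.4% in the other vitrified libraries. The 4 called genes were called without it as well, as was Lyz2.

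The same contrast was also fitted at the other times. These values come from a model over all times without the vitrified-only plate (11576 genes tested), and no library is shared between times. At 1 h this model called 0.492% of genes higher and 0.0346% lower, at 4 h 0.0691% and 0.0518%, and at 8 h 0.268% and 1.64%. Before hCG, with 18 fresh and 15 vitrified libraries whose titles carry another plate name, it called 0.536% higher and 0.423% lower. Rps2 rose by 1.80 ± 0.24 on the log2 scale (edgeR, adjusted p = 1.21e-06), Rps3a3 by 2.89 ± 0.32 (adjusted p 1.15e-08), H2-K1 by 0.85 ± 0.19 (0.0067) and Sfrp4 by 3.23 ± 0.60 (0.000839). H2-K2 fell by 1.99 on the log2 scale (SE 0.27, adjusted p 1.26e-06), and Apoe had -1.14 ± 0.36 (0.134). This model did not call H2-K2 (edgeR adjusted p = 0.06002) or Apoe (0.145) at 1 h, where H2-K1 had 1.75 ± 0.33. Of these 4 genes it called none at 4 h (0.0551 for Rps2, 0.14 for H2-K1, 0.095 for H2-K2, 0.591 for Apoe). It called only H2-K2 of them at 8 h (0.00621), when Apoe had -0.12 ± 0.77. For the 4, no difference between the effect at 1 h and that at 0, 4 or 8 h passed the test (edgeR adjusted p from 0.386 to 0.994). The SE of the 1 h minus 8 h difference was 0.98 for Apoe, so a missing call does not show equal effects.

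Rps3a3 and Rps2 were high in some vitrified libraries and low in others at every time. The bounds given here were drawn after the values were seen. For Rps3a3 no library of the 83 lay between 195 and 432 CPM. All 35 fresh libraries were below this gap, and 32 of 48 vitrified libraries above it, with 13 of 15 above at 0 h, 4 of 5 at 1 h, 6 of 7 at 4 h and 2 of 3 at 8 h. On the vitrified-only plate 4 of 9 libraries of 1 h and 3 of 9 of 8 h were above. For Rps2 no library lay between 144 and 200.5 CPM, with no fresh library above and 27 of 48 vitrified ones. The 9 vitrified 1 h libraries of that plate ran from 66.6 to 522 CPM of Rps2 with a median of 99.9, and 3 of them were above these bounds. They ran from 362 to 937 CPM of H2-K1 and from 37.2 to 321 CPM of Apoe.

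**Figure D5:**
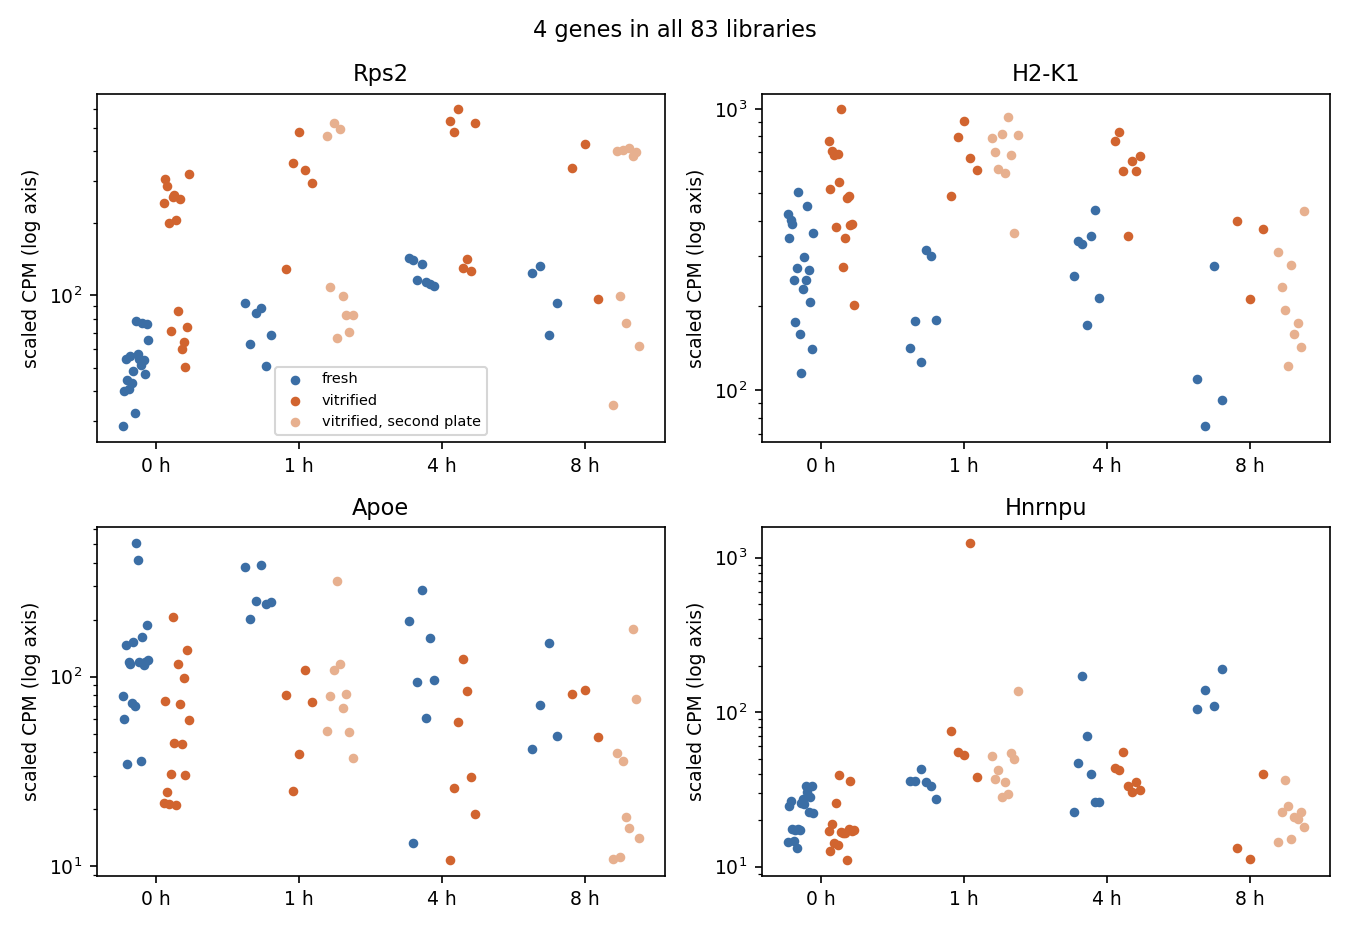
Scaled CPM (log axes) of Rps2, H2-K1, Apoe and Hnrnpu in all 83 libraries by time after hCG, fresh in blue, vitrified in orange and the vitrified-only plate in light orange. Some vitrified libraries are above 200.5 CPM of Rps2 at each time and no fresh library is, and Hnrnpu is at 1245 CPM in a single vitrified library of 1 h.

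Few genes differed between the effect at 1 h and that at 0 or 4 h, in counts that moved with the library left out. Between 1 h and 4 h, 3 genes were called higher (0.0259% of 11576) and 1 lower (0.00864%). Between 1 h and 0 h, 6 were higher (0.0518%) and 1 lower (0.00864%). Without vitrified library 4, edgeR called 1 gene (603 at an unadjusted p under 0.05) and 0 genes (629) in the 2 comparisons. Against 0 h the count was 34, 26, 25 and 37 without vitrified library 1, 2, 3 or 5, and 2 to 10 without a fresh library. Hnrnpu, Eif3b, Arf6 and Smarca5 were among the genes called and lost their calls without that library. In the 11 fits without 1 library of 1 h, Hnrnpu was called in 10, Arf6 in 9, Smarca5 in 7 and Eif3b in 6. The other losses came without fresh libraries. Sos2, an activator of Ras, rested on vitrified library 2, which held 577 CPM while the other 4 vitrified libraries held 2.75 to 11.3.

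Nfkbia was the gene called lower in both. Its 1 h effect of -1.46 ± 0.25 in this model stood beside -0.08 ± 0.14 at 0 h and 0.12 ± 0.20 at 4 h. The differences were -1.38 ± 0.28 (edgeR adjusted p = 0.0191) and -1.58 ± 0.32 (0.0184). Without single libraries of 1 h they lay between -1.52 and -1.19, and between -1.72 and -1.38. Both calls were lost without fresh library 3 (edgeR adjusted p = 0.082 against 0 h and 0.103 against 4 h) and without vitrified library 4 (0.0645 and 0.0639). The call against 4 h was also lost without vitrified library 2 (0.0833). The vitrified libraries of the other plate at 1 h, which had no fresh follicles beside them, held 9.31 to 27.6 CPM with a median of 13.9. Between 1 h and 8 h 267 genes were called higher (2.31%) and 15 lower (0.13%), or 123 and 5 without vitrified library 4. The 8 h groups held 4 and 3 libraries. Ptx3, a cumulus matrix protein, had the widest of the 5 differences with the lowest p, 8.08 ± 1.22, from an effect of 2.09 ± 0.78 at 1 h and -5.99 ± 0.97 at 8 h.

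Depth differed between the groups. Total counts were 1719239 to 3049417 in fresh and 3478459 to 5597289 in vitrified libraries (exact permutation test, adjusted p = 0.013), without overlap. Genes with a count numbered 14310 ± 452 (SD, n = 6) in fresh and 15244 ± 632 (n = 5) in vitrified libraries (exact permutation test, adjusted p = 0.0325). Once each library was thinned to the smallest total they numbered 12890 ± 349 and 12656 ± 377 (exact permutation test, p = 0.312). With libraries thinned in this way 7 genes were called, among them all 4 called with full depth.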

How the data were processed

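Libraries were made from single follicles by Smart-Seq2 and Nextera XT, which mark neither strand nor molecules, per the labels' protocols. The authors deposited estimated counts per gene, of which 17.2% of the values in the 11 libraries were not whole, and log2(TPM + 1) values. The submitters' processing notes name Partek, Bowtie2, HISAT2, DESeq2 and mm10. How reads with several matches were counted was not stated in these sources.

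Counts were rounded to whole numbers. Genes were kept by edgeR's filterByExpr with a minimum count of 10, scaled by TMM and tested by the edgeR (4.0.16) quasi-likelihood test on the 11 libraries alone, with limma 3.58.1 and DESeq2 1.42.0 as alternatives in R 4.3.3. Fold changes are vitrified minus fresh on the log2 scale. Printed levels are CPM scaled by TMM over all 83 libraries. Library totals, gene numbers, marker shares and summed copies were tested by two-sided exact permutation over 462 arrangements (SciPy 1.17.1), adjusted within families of 3, 7 and 4. Differences between times came from 1 edgeR model over 65 libraries. Alternatives were other scalings, filters and tools, thinning, a replicate block and leaving out each library.

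Named were the called genes, the 10 higher and 10 lower genes with the lowest p, the lowest p of each gene list, 20 fixed genes, and the 5 lowest p of each time difference. The members and lists were chosen with earlier results of these data known. A further 20 genes, the summed copies and the leave-one-out of time differences were chosen after values were seen, and 13 tested entries with date-like symbols are not named. In simulated data for the 1 h comparison with 7275 genes, 26% of 100 genes changed by 1 on the log2 scale and 85% of 100 changed by 2 were recovered, with 5 false among 116 calls. Sequences and positions come from GENCODE vM21 on GRCm38.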

Additional observations from a re-analysis of the deposited data

Results flagged for a closer look

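Of 122 groups of libraries checked, 20 held a single library far from the others of its group. The check assumes normally spread values, which was not tested for CPM. Some of the genes were also chosen after values were seen, so no share expected by chance is given. Vitrified library 4 was such a library for Fst (7256 CPM), Hnrnpab (1452), Hnrnpu (1245), Srsf2 (421), Cebpa (96.3), Lyz2 (6.85) and the share of counts in the 50 most abundant genes (50.0%). Other vitrified values far above the rest of their group were those of Acta2 (205 CPM), Arhgap28 (382), Cavin3 (23.2), Col1a1 (259.5), Slmap (49.7) and Tnfaip6 (537), and Rps3a3 had a far lower one (81.9). Among fresh libraries Net1 (169 CPM), Rbm3 (322), Rps3a3 (195), Sfrp4 (155) and Star (21223) had a single high value and Pgr (815) a single low one.

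The vitrification effect differed between times for the genes below (edgeR, adjusted p under 0.05), given as the effect at 1 h minus that at the other time on the log2 scale. Against 4 h these were Sos2 (7.72), Eif3b (3.76), Hnrnpu (3.63) and Nfkbia (-1.58). Against 0 h the 5 with the lowest p were Smarca5 (3.92), Arf6 (3.60), Hnrnpu (3.30), Fbxw11 (1.26) and Nfkbia (-1.38). Against 8 h they were Ptx3 (8.08), Hnrnpu (5.72), Tpbg (5.33), Khdrbs1 (4.31) and Golph3 (3.99). Each was called in all 11 fits without 1 library of 1 h, while no library of 8 h was left out. The call of Fbxw11 was lost without vitrified library 4 (1.03, edgeR adjusted p = 0.217), fresh library 2 (0.059) or fresh library 5 (0.0673).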

How the results depend on the processing

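The count of 4 called genes was 37 with DESeq2, 153 without the filter on low counts, 8 with limma-voom, 7 with libraries thinned to equal depth and 61 in a fit over all groups except the vitrified-only plate. It was 0 with the counts of the Rps2, Rps3a and H2-K1 copies summed. At an unadjusted p under 0.05 stood 661 genes in that fit, which was chosen after seeing the data. There H2-K1 with H2-K2, a copy that is 88.6% identical, kept 1.58 ± 0.24 (edgeR adjusted p = 0.0596). Apoe, whose counts were not summed, also missed the threshold in that fit. Without 1 library it ran from 0 (fresh 6 or vitrified 5) to 6 (vitrified 3), with 1 without fresh 1 and 2 without fresh 4 or vitrified 2. With a replicate block on the well column, possible for 8 libraries, it was 0 (700 at an unadjusted p under 0.05), and 0 in the same 8 without the block (656). Deviations of libraries in the same column correlated at -0.088, -0.011, 0.134 and -0.012. Libraries of different columns were not compared in this way, so these values cannot show whether a column shares an animal or culture run. The call was kept in 18 of 24 alternatives for Rps2, 15 of 24 for H2-K1, 14 of 22 for H2-K2 and 11 of 24 for Apoe, with no change of direction.

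Fitted on the 4 groups compared alone, the differences between times were 0 for 4 h (513 at an unadjusted p under 0.05), 2 for 0 h and 114 for 8 h, and 4 for 0 h with total counts alone. Without 1 library of 1 h, in the model over all times, they ran from 1 to 7 for 4 h, from 0 to 37 for 0 h and from 128 to 372 for 8 h. Libraries of the other times were not left out. The share of the 200 most abundant genes differed by 2.61 percentage points, and genes with a count by -233.8 after thinning.

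Of the log2 fold changes of single genes, 19 settings turned the sign. Hspa1a was -0.14 with total counts alone, -0.0049 with a filter of 50 counts in 5 libraries, -0.27 with limma on log2(TPM + 1), -0.0043 with limma-voom, and -0.22 to 0.17 without 1 library. Fshr was -0.0080 with total counts alone and -0.046 with limma on log2(TPM + 1). Cyp19a1 was 0.11 with the replicate block, 0.12 in the same 8 libraries without it, and -0.28 to 0.015 without 1 library. Has2 ran from -0.045 to 0.42 and Arf6 from -0.058 to 3.25 without 1 library, and Rps3a1 was 0.45 with its copies summed. The causes were not tested. Depth limits low genes most, as fresh libraries held 1719239 to 3049417 counts.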

Other observations

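Of the genes tested on chromosome 17, which carries Rps2, H2-K1 and H2-K2, 12.7% of 354 stood at an unadjusted p under 0.05, beside 9.10% of 7175 genes matched to a chromosome. On chromosome 17, 6 of 354 genes did not overlap between the groups, beside 72 of 7175. On chromosome 13, which carries Sfrp4 and Rps3a3, 8 of 266 did not overlap and 10.5% stood at an unadjusted p under 0.05. Chromosome 7, which carries Apoe, had 11.2% at that level and 3 of 465 without overlap. All are descriptions without a test, and the chromosomes were singled out after their values were seen.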
